A study of Mus musculus with 8 samples.

Results

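Aminoacyl-tRNA synthetases join each amino acid to its tRNA and so supply the ribosome with its substrates. Mammalian cells run this step in the cytosol and in the mitochondria, mostly with separate enzymes that are all encoded in the nucleus, and the liver uses the cytosolic enzymes heavily to make plasma proteins. Many genes of the cytosolic enzymes are known targets of the transcription factor Atf4, which acts in the response to amino acid shortage and to stress of the endoplasmic reticulum. Here the synthetases were taken as all probes whose platform gene symbol follows the pattern of this family (a letter for the amino acid followed by ars, with or without a final 1 or 2, or Eprs, Farsa or Farsb). The rule found 54 probes for 33 genes, of 25697 probes and 16590 genes on the array. Of these genes 19 are cytosolic and 14, whose symbols end in 2, are mitochondrial. Gars and Kars encode enzymes of both compartments and were kept with the cytosolic ones.

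RNA came from frozen non-tumour liver of male A/J mice, an inbred strain, and was measured on 8 Illumina mouse BeadArrays in 4 groups of 2. The mice received CCl4 with erlotinib at 2 mg, CCl4 with erlotinib at 5 mg, CCl4 alone, or the olive oil vehicle alone. CCl4, a toxin that hepatocytes activate and that scars the liver on repeated dosing, was a 40% solution gavaged 3 times per week over 18 weeks, and the protocol then has a washout of 1 week with death in week 19, while the sample descriptions say week 18. Erlotinib blocks the kinase activity of the EGF receptor; its schedule, the body weight its doses refer to and the age of the mice at the start are not stated in the sources used here. Every erlotinib animal also received CCl4, so erlotinib without injury was not measured. Whether the arrays of a group stem from different mice is not stated, so p-values measure only the spread between arrays, which may be technical.

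Array medians before normalization were 99.8 to 130, and 23.0% to 26.1% of the probes on an array lay above its background limit, taken as the 99th percentile of probes for receptors of odours, pheromones and trace amines. Arrays of a group correlated at 0.984 to 0.988 over the genes tested. Levels below are normalized log2 intensities, and a gene is called higher or lower at a Benjamini-Hochberg adjusted p under 0.05 from limma over 11020 genes. Of 12 hepatocyte markers tested, 12 were above background on at least 1 array, as in liver. Because these are whole pieces of liver, fewer cells of a type and less RNA per cell cannot be told apart.

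Of the 33 synthetase genes, 27 were bright enough to be tested, 16 cytosolic and 11 mitochondrial. The genes too dim to test were Cars, Farsa and Tars of the cytosolic enzymes and Hars2, Nars2 and Yars2 of the mitochondrial ones. Hars, Yars, Aars2, Mars2 and Pars2 were tested but lay under background on all 8 arrays, so nothing can be said of their levels. Of the genes tested, 13 cytosolic and 6 mitochondrial ones were above background on every array, Lars on 7 arrays, Lars2 on 6 and Wars2 on 1. Dars, Cars2 and Tars2 were not analysed here, and Tarsl2, a threonine enzyme with 2 probes, lies outside the symbol rule.

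In CCl4 livers the cytosolic synthetases were higher than in vehicle livers and the mitochondrial ones were not called. Of 16 cytosolic genes tested, 11 rose and 0 fell, where 6.75% of all genes tested rose and 5.93% fell. Of 11 mitochondrial genes, 0 were called in either direction, with 1 at an unadjusted p under 0.05. The median log2 difference, CCl4 minus vehicle, was 0.52 over the cytosolic genes, -0.01 over the mitochondrial genes and -0.00248 over all genes tested. The arrays of the 2 groups did not overlap, with CCl4 higher, for 12 of the 16 cytosolic genes, against 24.6% of all genes.

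**Figure D1:**
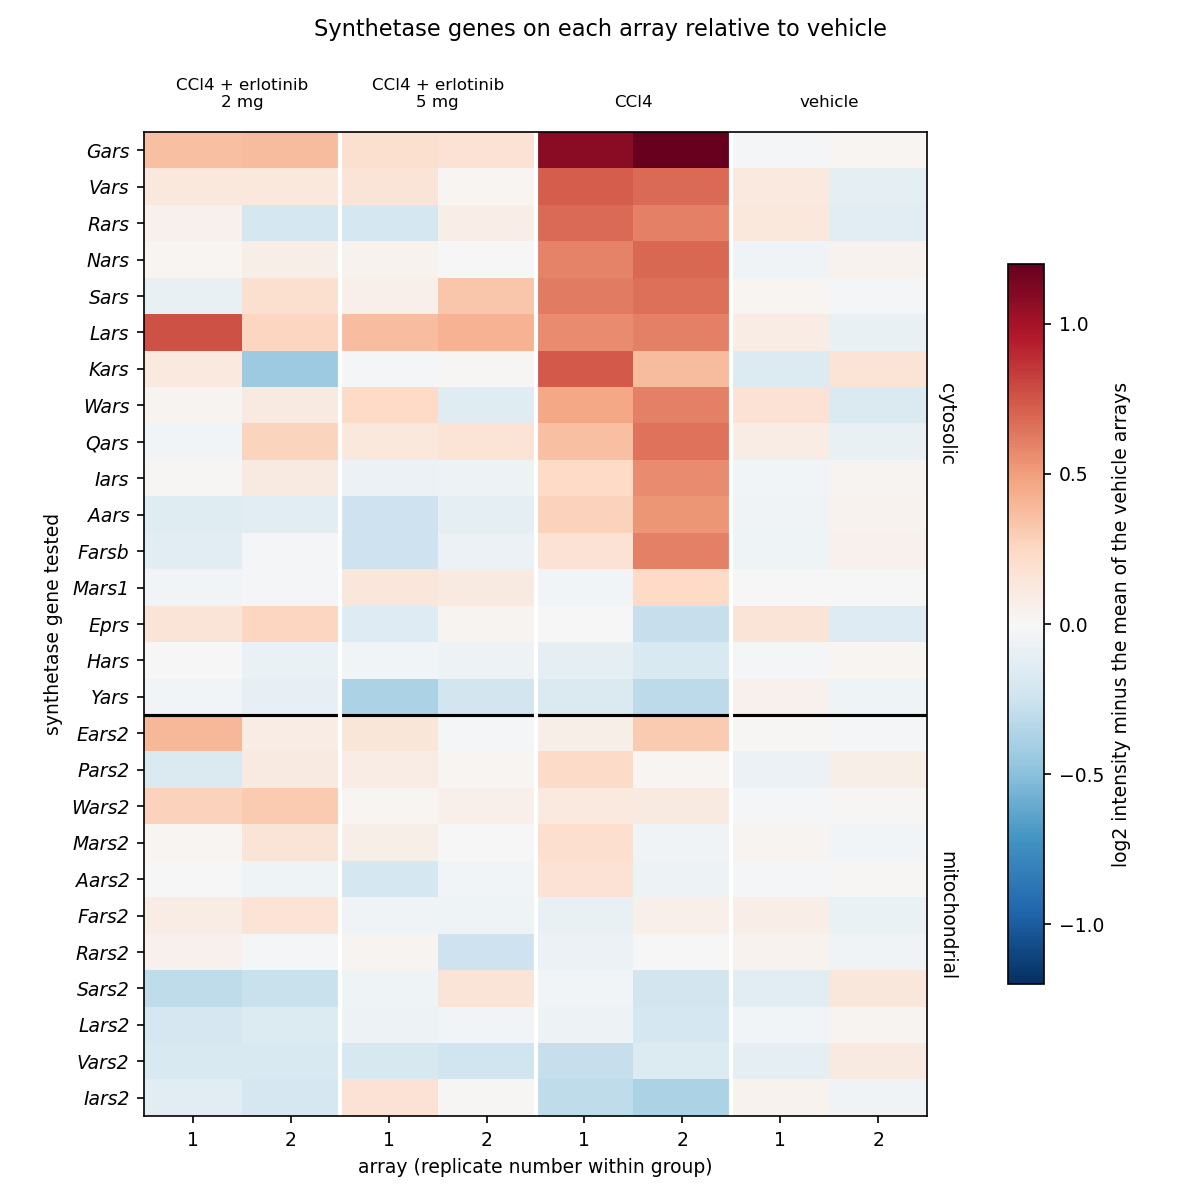
Normalized log2 intensity of each tested synthetase gene (rows) on each of the 8 arrays (columns), minus the mean of the vehicle arrays. The red block covers the CCl4 arrays of the upper 12 cytosolic genes, led by Gars, and the 11 mitochondrial genes below the line show no such block.

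Averaged over the 16 cytosolic genes, the level relative to the vehicle mean was 0.07 and 0.05 log2 units on the arrays of CCl4 with erlotinib 2 mg, -0.00379 and 0.04 with erlotinib 5 mg, and 0.39 and 0.45 with CCl4 alone. Both CCl4 arrays therefore stood apart from the other 6. The same average over the 11 mitochondrial genes lay between -0.05 and 0.02 on every array. The summed intensity of the cytosolic genes was 3674 to 3721 with CCl4 and erlotinib 2 mg, 3472 to 3576 with erlotinib 5 mg, 5115 to 5641 with CCl4 and 3420 to 3454 with vehicle. That of the mitochondrial genes lay between 1177 and 1229 on all 8 arrays.

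Gars, which charges glycine tRNA in the cytosol and in mitochondria and lies at chr6:55038001-55079504 (RefSeq, build GRCm38.p6), changed most among the synthetases. Its log2 intensity was 10.02 and 10.04 with CCl4 and erlotinib 2 mg, 9.85 and 9.83 with erlotinib 5 mg, 10.74 and 10.89 with CCl4, and 9.64 and 9.68 with vehicle. The CCl4 arrays were above all others, and the erlotinib arrays lay between them and the vehicle arrays. The difference of CCl4 from vehicle was 1.16 ± 0.11 (SE), 2.23-fold (adjusted p = 2.26e-06), which placed Gars at rank 110 of 11020 genes by the size of the rise.

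Among the other enzymes that work outside the multisynthetase complex, Vars, the valine enzyme, had 7.25 and 7.25 with CCl4 and erlotinib 2 mg, 7.27 and 7.14 with erlotinib 5 mg, 7.84 and 7.79 with CCl4, and 7.23 and 7.002 with vehicle, a rise of 0.70 ± 0.12 (adjusted p = 0.000565). Nars, the asparagine enzyme, had 7.38 and 7.43 with erlotinib 2 mg, 7.39 and 7.35 with 5 mg, 7.95 and 8.04 with CCl4, and 7.31 and 7.40 with vehicle, a rise of 0.64 ± 0.11 (adjusted p = 0.000749). For both genes the CCl4 arrays lay above the other 6. Sars, the serine enzyme, had 6.89 and 7.17 with erlotinib 2 mg, 7.04 and 7.32 with 5 mg, 7.60 and 7.64 with CCl4, and 7.01 and 6.96 with vehicle, and its rise of 0.64 ± 0.13 had an adjusted p of 0.00262. Aars, the alanine enzyme, had 9.003 and 9.02 with erlotinib 2 mg, 8.90 and 9.04 with 5 mg, 9.42 and 9.67 with CCl4, and 9.10 and 9.19 with vehicle. It was bright on every array, and its rise of 0.40 ± 0.12 (adjusted p = 0.0408) was the smallest among the genes called.

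Wars charges tryptophan tRNA and is known as an interferon-gamma-induced gene in human cells. It had 7.02 and 7.10 with erlotinib 2 mg, 7.23 and 6.85 with 5 mg, 7.46 and 7.60 with CCl4, and 7.16 and 6.83 with vehicle, a rise of 0.54 ± 0.15 (adjusted p = 0.0199). Its CCl4 arrays did not overlap with any other array. Of 13 genes of an interferon gamma list that were tested, 5 rose with CCl4 and 0 fell, with a list median of 0.47. Of all genes tested, 6.75% rose and 5.93% fell. The first of the list by p were Igtp and Irgm1, immunity-related GTPases, with rises of 1.37 and 0.82. Farsb, the beta subunit of the phenylalanine enzyme, had 8.04 and 8.14 with erlotinib 2 mg, 7.91 and 8.09 with 5 mg, 8.33 and 8.76 with CCl4, and 8.11 and 8.21 with vehicle. Its CCl4 arrays were the highest, but the difference from vehicle of 0.39 ± 0.14 was not called (adjusted p = 0.0900).

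The multisynthetase complex holds several cytosolic enzymes on a scaffold of the non-enzymatic proteins Aimp1, Aimp2 and Eef1e1. Of its 7 enzyme genes tested, 5 rose with CCl4 (median difference 0.51), beside 6 of the 9 enzymes outside it (median 0.54). Rars, the arginine enzyme, had 7.16 and 6.90 with erlotinib 2 mg, 6.90 and 7.19 with 5 mg, 7.80 and 7.72 with CCl4, and 7.24 and 6.99 with vehicle, a rise of 0.65 ± 0.14 (adjusted p = 0.00383). Kars, the lysine enzyme of both compartments, had 7.37 and 6.82 with erlotinib 2 mg, 7.23 and 7.27 with 5 mg, 7.99 and 7.63 with CCl4, and 7.09 and 7.42 with vehicle. Its rise of 0.56 ± 0.17 had an adjusted p of 0.0419. Qars, the glutamine enzyme, which has no separate mitochondrial partner in mammals, had 8.45 and 8.75 with erlotinib 2 mg, 8.61 and 8.64 with 5 mg, 8.85 and 9.13 with CCl4, and 8.57 and 8.40 with vehicle, a rise of 0.51 ± 0.14 (adjusted p = 0.0186).

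Iars, the isoleucine enzyme of the complex, had 6.78 and 6.87 with erlotinib 2 mg, 6.70 and 6.71 with 5 mg, 7.01 and 7.34 with CCl4, and 6.74 and 6.80 with vehicle, a rise of 0.41 ± 0.13 (adjusted p = 0.0436). Lars, the leucine enzyme, had 7.20 and 6.70 with erlotinib 2 mg, 6.81 and 6.86 with 5 mg, 7.01 and 7.05 with CCl4, and 6.53 and 6.35 with vehicle. Its vehicle arrays were the lowest, one of them under background, so the size of its rise of 0.59 ± 0.15 (adjusted p = 0.0111) is uncertain. The other 2 complex genes were not called. Eprs, whose protein charges both glutamate and proline tRNA, had 6.91 and 7.02 with erlotinib 2 mg, 6.60 and 6.79 with 5 mg, 6.76 and 6.48 with CCl4, and 6.92 and 6.61 with vehicle, a difference of -0.14 (adjusted p = 0.667). Mars1, the methionine enzyme, differed by 0.10 (adjusted p = 0.735), and on both genes the CCl4 and vehicle arrays overlapped.

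**Figure D2:**
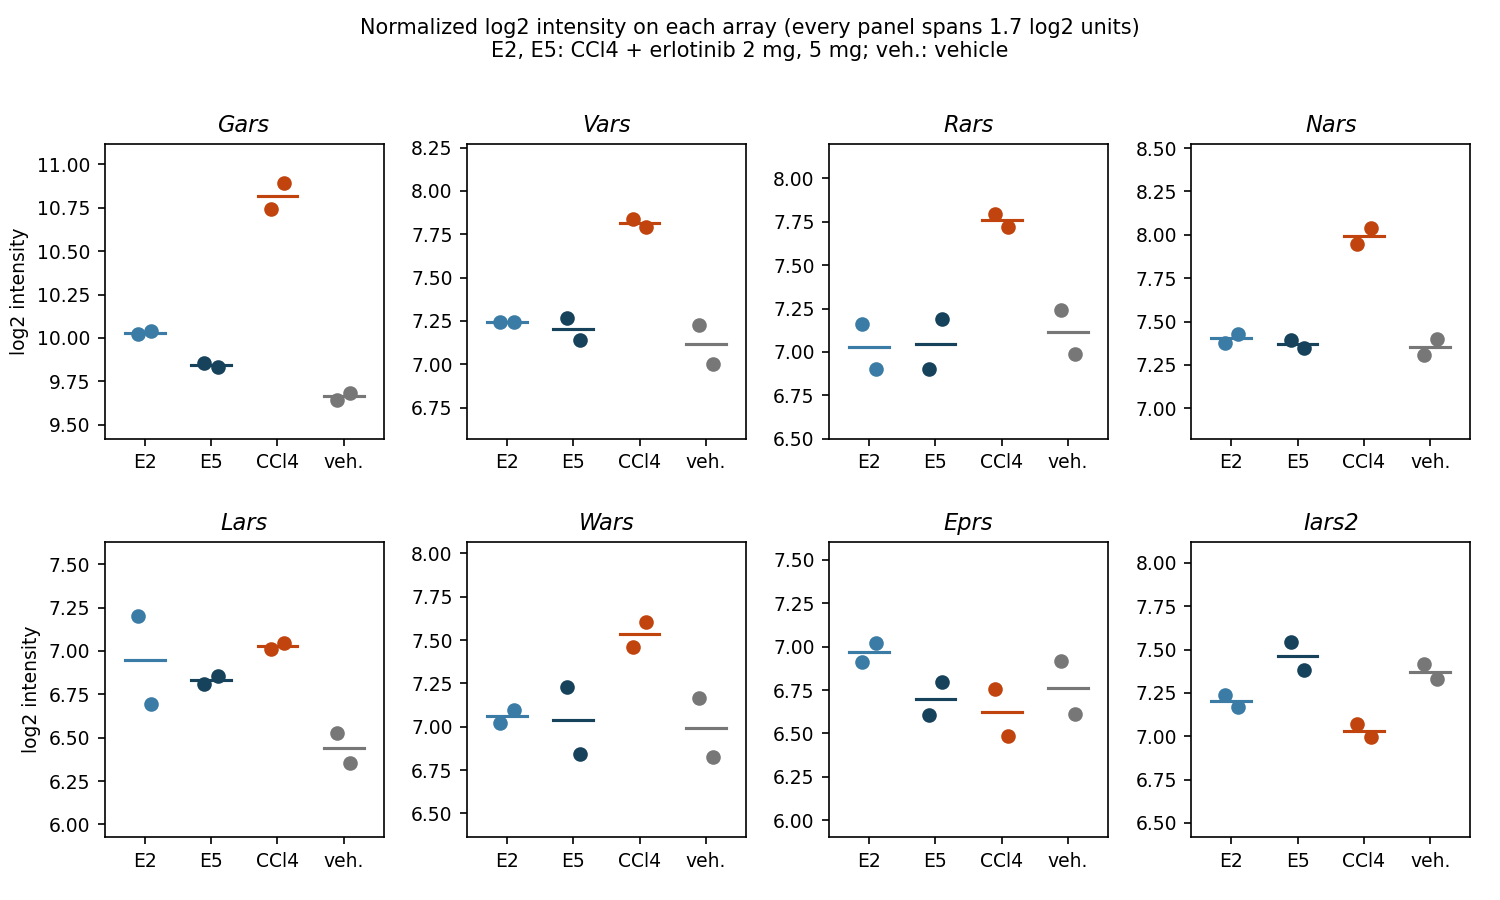
Normalized log2 intensity of 8 synthetase genes on each array, with points for arrays and bars for the mean of 2; every panel spans the same range. For Gars, Vars, Rars, Nars and Wars the CCl4 arrays lie above all others, for Lars they overlap with the erlotinib 2 mg arrays, for Eprs the CCl4 and vehicle arrays overlap, and for Iars2 they are the lowest.

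Of the scaffold genes, Aimp1 had 7.42 and 7.33 with erlotinib 2 mg, 7.40 and 7.11 with 5 mg, 7.82 and 7.49 with CCl4, and 7.11 and 7.11 with vehicle, and rose by 0.54 with CCl4 (adjusted p = 0.0123). Aimp2 rose by 0.49 (adjusted p = 0.0104), and Eef1e1, above background on 3 arrays, differed by -0.06 (adjusted p = 0.880). These belong to a list of 12 tested partners of the synthetases and enzymes of tRNA ends, of which 2 rose with CCl4 and 1 fell, with a median of 0.00816, where 6.75% of all genes rose and 5.93% fell. A single fall among 12 is near that share; the gene was Gatb (difference -0.42, adjusted p = 0.0251), a subunit of the amidotransferase that makes mitochondrial glutamine tRNA in place of a synthetase.

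The mitochondrial enzymes differed from vehicle by -0.34 to 0.19 with CCl4. Iars2, the mitochondrial isoleucine enzyme, had the lowest value: 7.24 and 7.17 with erlotinib 2 mg, 7.54 and 7.38 with 5 mg, 7.07 and 6.99 with CCl4, and 7.42 and 7.33 with vehicle. Its CCl4 arrays lay under all others, but the difference of -0.34 ± 0.12 was not called (adjusted p = 0.0699). Ears2, the mitochondrial glutamate enzyme, had the highest difference, 0.19 ± 0.13 (adjusted p = 0.485). Few mitochondrial probes were bright, so the classes were also set side by side among genes with a mean log2 intensity of 6.5 to 7.5, a window chosen after the values were seen. There 7 of 9 cytosolic and 0 of 6 mitochondrial genes rose with CCl4, beside 11.0% of all 2244 genes in the window.

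**Figure D3:**
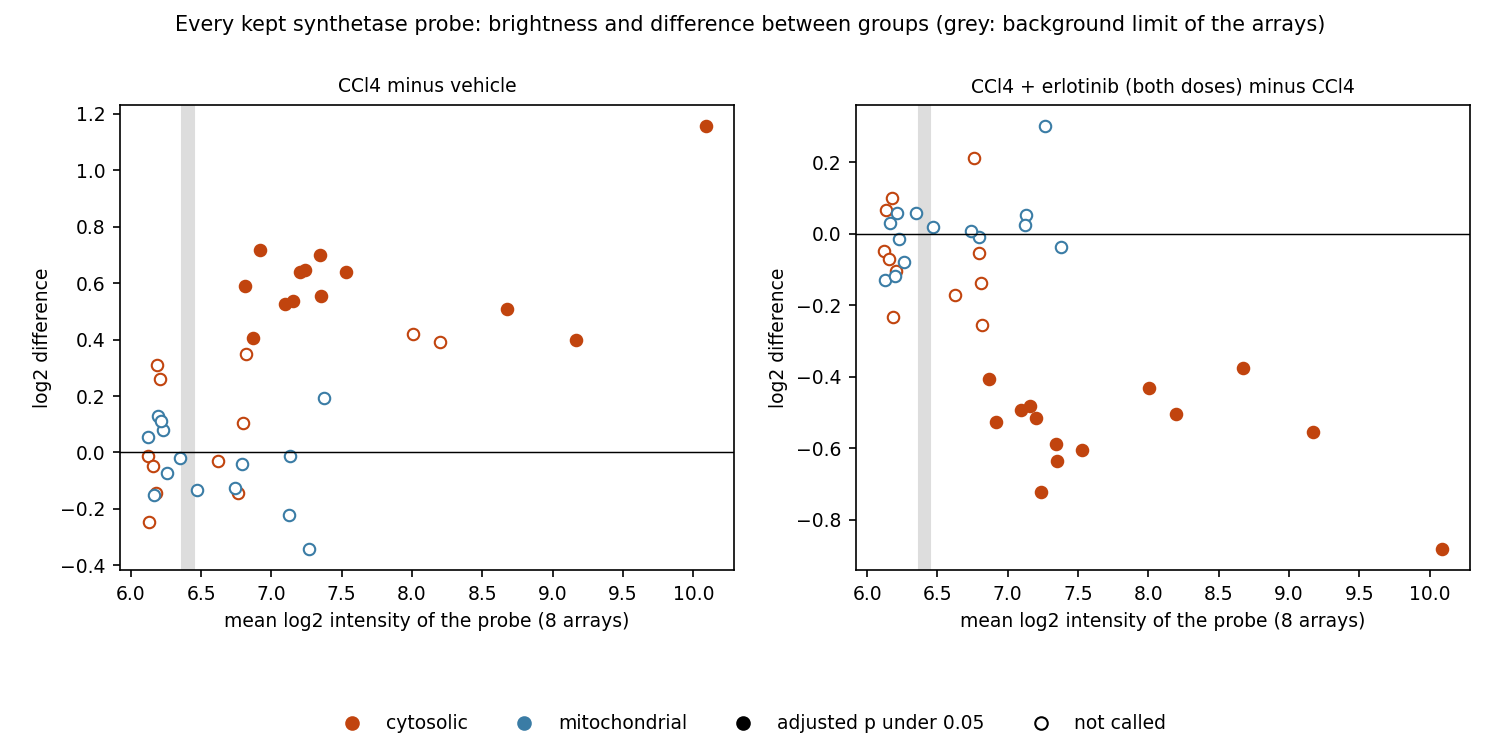
Difference between groups (log2) against mean log2 intensity for every synthetase probe that was kept, including further probes of a gene; filled points have an adjusted p under 0.05 and the grey band is the range of background limits. The filled points are all cytosolic and lie to the right of the band, and mitochondrial probes of the same brightness are open.

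Several genes had more than 1 probe, and their probes mostly moved alike where they were above background. The further probe of Rars rose by 0.53 with CCl4 (adjusted p = 0.00529 over all kept probes), and a further probe of Wars rose by 0.72 (adjusted p = 0.00143), more than the probe that stood for the gene. The second probe of Farsb differed by 0.42 (adjusted p = 0.0712), close to the first. Vars was less even: its second probe, above background on all arrays, differed by 0.35 (adjusted p = 0.109), against 0.70 for the first. The further probes of Iars that were kept, and those of Rars2 and Wars2, showed no called difference, and all of these but 1 of Rars2 were under background on every array. The second probe of Mars1 differed by -0.03 (adjusted p = 0.945), and the remaining kept probes of Vars and Wars were above background on at most 1 array.

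With erlotinib the cytosolic synthetases were lower than with CCl4 alone. Over both doses, 11 of 16 cytosolic genes fell and 0 rose, where 6.01% of all genes tested fell and 5.35% rose. Their median difference from CCl4 was -0.49, against 0.00930 over the 11 mitochondrial genes, of which 0 were called and 1 had an unadjusted p under 0.05. The genes that fell were Gars, Rars, Kars, Nars, Vars, Aars, Sars, Farsb, Wars, Iars and Qars. This comparison and that of CCl4 with vehicle share the CCl4 arrays, so their opposite directions are not independent of each other.

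**Figure D4:**
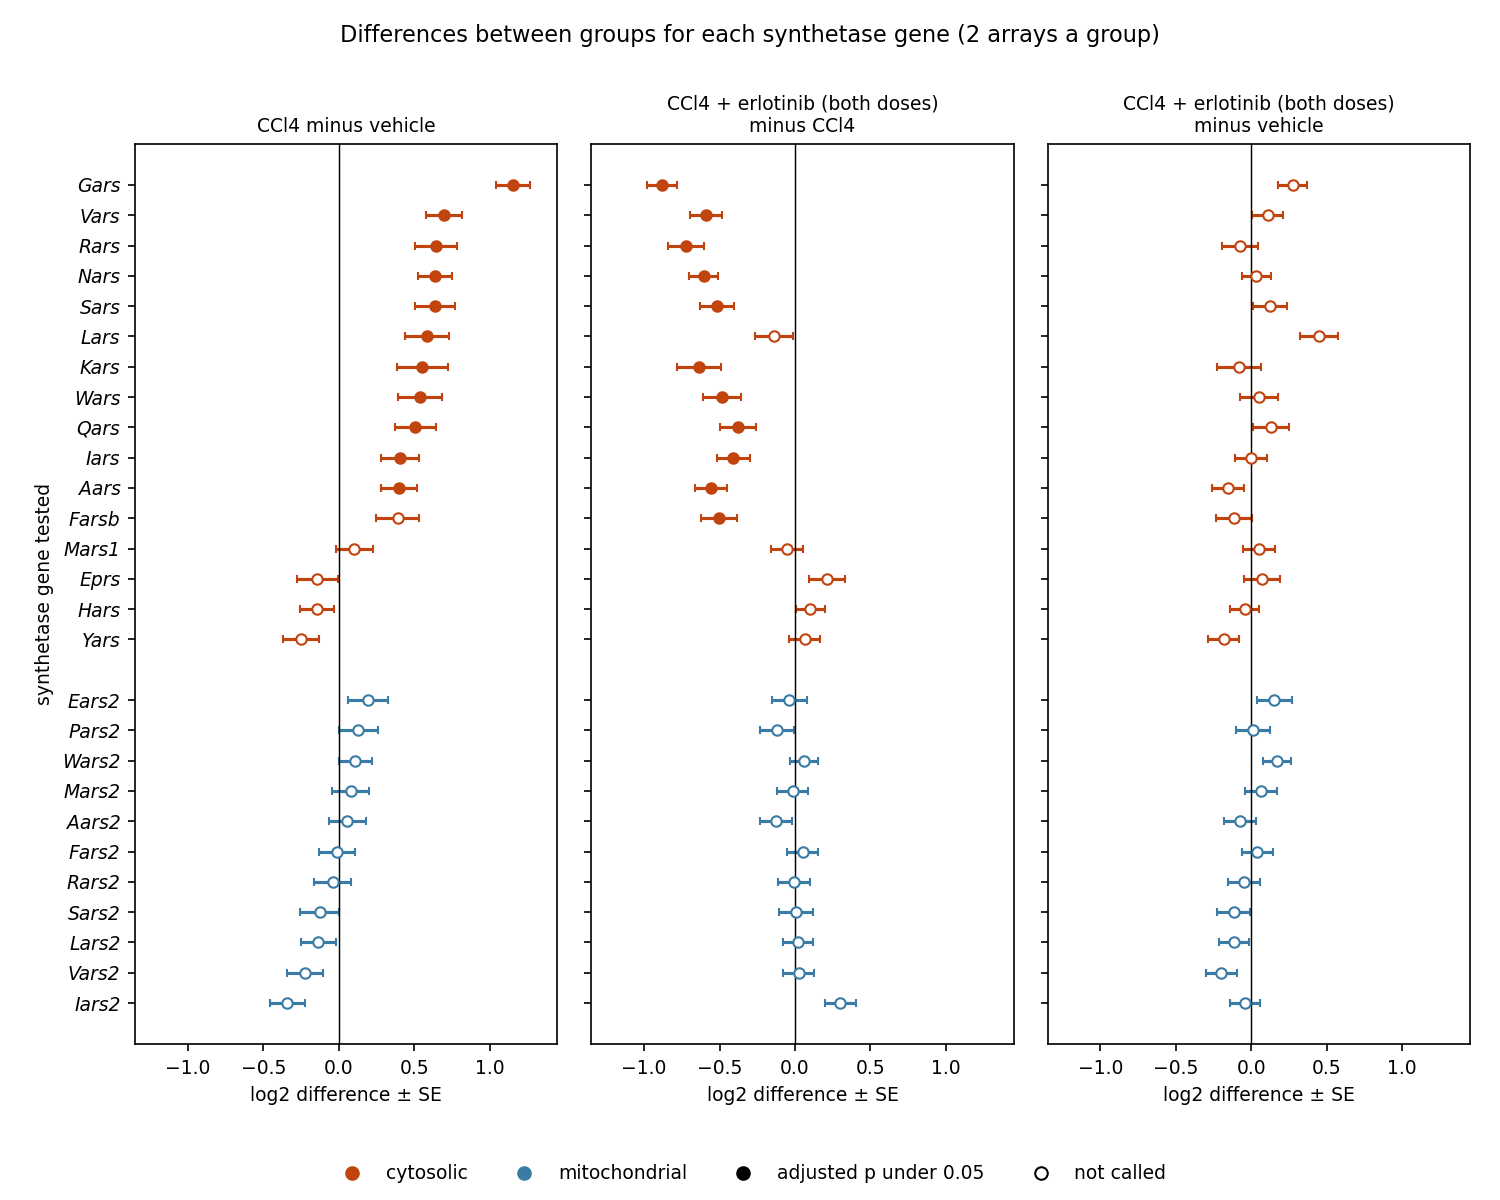
Log2 difference with its standard error for each tested synthetase gene in 3 comparisons, cytosolic genes above and mitochondrial genes below; filled points are called. In the left panel 11 cytosolic genes are called above 0, in the middle panel 11 are called below 0, and in the right panel, both erlotinib groups against vehicle, 0 genes are called.

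Gars fell by 0.88 on the log2 scale over both doses, to 0.543 of its CCl4 level (SE 0.10, adjusted p = 1.25e-05). The next largest falls were those of Rars, by 0.72 (adjusted p = 0.000515), Kars, by 0.64 (adjusted p = 0.00798), and Nars, by 0.61 (adjusted p = 0.000398). Vars fell by 0.59 (adjusted p = 0.000840), Aars by 0.56 (adjusted p = 0.00173) and Sars by 0.52 (adjusted p = 0.00514). For 11 of the 16 cytosolic genes, these 7 among them, every erlotinib array lay under both CCl4 arrays, as for 14.1% of all genes. The smallest falls were those of Farsb, by 0.50 (adjusted p = 0.0103), Wars, by 0.48 (adjusted p = 0.0175), Iars, by 0.41 (adjusted p = 0.0205), and Qars, by 0.38 (adjusted p = 0.0493). Lars, although called with CCl4, differed by only -0.14 (adjusted p = 0.663) with erlotinib, and its erlotinib 2 mg arrays lay on either side of the CCl4 arrays. Eprs differed by 0.21 (adjusted p = 0.373). The further probes fell likewise for Rars, by 0.49 (adjusted p = 0.00311), Wars, by 0.53 (adjusted p = 0.00640), and Farsb, by 0.43 (adjusted p = 0.0301), while the second probe of Vars differed by -0.25 and was not called (adjusted p = 0.223).

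At 2 mg 7 cytosolic genes fell (Gars, Rars, Kars, Nars, Sars, Vars and Aars), beside 4.46% of all genes. At 5 mg 9 fell (Gars, Rars, Nars, Vars, Aars, Farsb, Wars, Iars and Sars), beside 4.66% of all genes. Gars fell by 0.79 at 2 mg (adjusted p = 0.000219) and by 0.98 at 5 mg (adjusted p = 3.04e-05). The doses were compared directly: 5 mg minus 2 mg was -0.19 for Gars (adjusted p = 0.996) and 0.16 for Kars (adjusted p = 0.996). Of the 27 synthetases 0 were called between the doses, with 3 at an unadjusted p under 0.05, and 0.0181% of all genes were called. Over the cytosolic genes the dose differences ran from -0.27 to 0.16 on the log2 scale, which does not show that the doses act alike.

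Iars2 was the only mitochondrial gene called in an erlotinib comparison, and it ran against the cytosolic genes. It rose by 0.43 ± 0.12 at 5 mg against CCl4 (adjusted p = 0.0252), where 4.41% of all genes rose, and its 5 mg arrays lay above both CCl4 arrays. At 2 mg its difference was 0.17 (adjusted p = 0.526), and the direct comparison of the doses gave 0.26 (adjusted p = 0.996). In the brightness window, 6 of 9 cytosolic and 0 of 6 mitochondrial genes fell over both doses, beside 8.69% of all genes there.

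Set against vehicle rather than CCl4, the synthetases of the erlotinib groups were not called. Of 27 genes, 0 passed the threshold over both doses and 2 had an unadjusted p under 0.05, where 3.53% of all genes were called. The median difference from vehicle was 0.04 over the cytosolic and -0.04 over the mitochondrial genes. Lars had the largest difference, 0.45 (adjusted p = 0.0640), with all erlotinib arrays above both vehicle arrays. Gars followed with 0.27 (adjusted p = 0.181), and its arrays did not overlap either. These were 2 of the 16 cytosolic genes, which is near the 11.6% of all genes whose erlotinib arrays all lay above vehicle. A missed threshold does not show that these levels equalled those of vehicle.

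Genes of the amino acid response were measured beside the synthetases. Of 25 tested from a list of 30, 7 rose with CCl4 and 1 fell, with a median of 0.14, where 6.75% of all genes rose and 5.93% fell. With both erlotinib doses against CCl4 0 rose and 10 fell, with a median of -0.16, where 5.35% of all genes rose and 6.01% fell. Ddit3, a stress-induced transcription factor, had 7.08 and 6.93 with erlotinib 2 mg, 7.29 and 6.89 with 5 mg, 9.35 and 9.79 with CCl4, and 7.09 and 7.01 with vehicle. It rose by 2.52 with CCl4 (adjusted p = 1.98e-08) and fell by 2.52 with erlotinib (adjusted p = 1.70e-08), and the erlotinib and vehicle arrays overlapped. Nupr1, a stress-induced chromatin protein, was under background on both vehicle arrays, and its level with CCl4 was at least 3.60-fold higher, computed against the background limit of those arrays (adjusted p = 3.64e-08). With erlotinib it fell by 1.62 (adjusted p = 2.67e-07). Atf5, a transcription factor related to Atf4, rose by 0.93 with CCl4 (adjusted p = 8.95e-05) and fell by 0.50 with erlotinib (adjusted p = 0.00612).

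Trib3, a pseudokinase that dampens Atf4 and Ddit3, had 6.47 and 6.90 with erlotinib 2 mg, 7.05 and 6.85 with 5 mg, 7.02 and 6.96 with CCl4, and 6.17 and 6.51 with vehicle. It rose by 0.65 with CCl4 (adjusted p = 0.00788), but with erlotinib it differed from CCl4 by -0.17 (adjusted p = 0.580), and the groups overlapped. Vehicle replicate 1 was under background for Trib3, so the size of its rise is uncertain. The probes of Atf4 itself and of Asns, the asparagine synthetase gene, were under background on every array, so their levels could not be compared. They were among 7 of the 25 tested genes of this list with no array above background. Shmt2, a mitochondrial serine and glycine enzyme, was the list member that fell with CCl4, by 0.46 (adjusted p = 0.0234). Aimp1 and Aimp2 differed from CCl4 by -0.34 (adjusted p = 0.0824) and -0.33 (adjusted p = 0.0528) with erlotinib and were not called. Gatb rose by 0.53 (adjusted p = 0.00187), the only call among the 12 partners. A single rise among 12 is near the 5.35% of all genes that rose.

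Promoters of the synthetases were searched for the core of the C/EBP-ATF response element, to which Atf4 and Ddit3 are known to bind with C/EBP partners. The letters were TGATGNAA on either strand (TTNCATCA when read from the other), from 250 bases before to 50 bases after each transcript start listed for a gene in RefSeq, build GRCm38.p6. A listed start need not be the outermost start of the gene: that of Aars lies 6064 bases and that of Yars 169 bases inside the annotated gene, while those of Gars, Iars and Tars are its first base. The core was in 5 of the 12 cytosolic genes that had a listed promoter, against 0 of 12 mitochondrial genes and 4.51% of all 27025 genes listed. Cars, Hars, Lars, Nars, Rars, Vars, Wars, Hars2 and Pars2 were not matched. The 5 genes are shown because 3 of them, Gars, Aars and Iars, rose with CCl4, while Tars was too dim to test and Yars was under background. Each line gives 30 bases on the gene's strand, 5′ to 3′, with the core in capitals.
Gars, chr6:55037960-55037989, plus strand: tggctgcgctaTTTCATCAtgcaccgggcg
Aars, chr8:111033840-111033869, plus strand: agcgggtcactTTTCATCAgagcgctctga
Iars, chr13:49682126-49682155, plus strand: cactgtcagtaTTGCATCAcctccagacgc
Tars, chr15:11399655-11399684, minus strand: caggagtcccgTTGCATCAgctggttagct
Yars, chr4:129189895-129189924, plus strand: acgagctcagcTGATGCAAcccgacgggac

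The first base of the core lay 30 bases before the listed start in Gars and 15 before it in Tars. In the sites shown for Aars, Iars and Yars it lay 10, 8 and 4 bases after the start. The 150 bases before the Gars start (chr6:55037851-55038000, plus strand) place the site in its surroundings, with the core in capitals.
Gars promoter: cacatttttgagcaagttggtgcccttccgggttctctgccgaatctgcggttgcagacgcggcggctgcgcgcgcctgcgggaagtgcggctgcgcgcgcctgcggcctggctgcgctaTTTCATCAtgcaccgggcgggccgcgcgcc
Genes that rose with CCl4 without these letters in their window were Kars, Qars and Sars. A match describes the letters and does not show that a factor binds there, and a window without them says nothing of the factor.

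Some cell type markers differed between the same groups, and their part in the synthetase results was not tested. With CCl4 6.75% of all genes rose and 5.93% fell. Of 12 hepatocyte markers 0 rose and 7 fell. Their summed intensity was 75401 to 75829 with CCl4 and erlotinib 2 mg, 74039 to 74446 with erlotinib 5 mg, 63428 to 71965 with CCl4 and 93762 to 98041 with vehicle. The marker Serpina1e, a protease inhibitor gene, carried much of the vehicle sums. Without it, left out after its values were seen, the sums were 74583 to 75456 with erlotinib 2 mg and 72988 to 73321 with 5 mg. They were 62385 to 69534 with CCl4 and 79146 to 79750 with vehicle. With and without Serpina1e, the erlotinib sums lay between those of CCl4 and vehicle. With both erlotinib doses against CCl4, 4 of the 12 markers rose and 2 fell (median 0.29), where 5.35% of all genes rose and 6.01% fell. Against vehicle 0 rose and 1, Serpina1e, fell (median -0.13), where 1.95% of all genes rose and 1.58% fell. Of 9 markers of stellate cells and myofibroblasts 4 rose with CCl4, and the sums were 1730 to 1833 with erlotinib 2 mg, 1397 to 1625 with 5 mg, 1834 to 2315 with CCl4 and 1268 to 1290 with vehicle. Of 4 macrophage markers 1 rose (Lyz2), with sums of 994 to 1337 with erlotinib 2 mg, 1035 to 1071 with 5 mg, 1009 to 1300 with CCl4 and 660 to 665 with vehicle. These 4 were the only ones tested of 13 listed, and Itgam among them was under background on every array. Adgre1, Cd68, Csf1r and Timd4 were among those that did not pass the filter on dim probes or were not analysed here. Without Lyz2, also left out after its values were seen, the sums were 502 to 578 with erlotinib 2 mg, 494 to 544 with 5 mg, 516 to 541 with CCl4 and 485 to 490 with vehicle. With and without Lyz2, the macrophage sums of the erlotinib arrays overlapped with those of CCl4. Without it 3 genes remained, and the lowest erlotinib 5 mg sum, 494, was only slightly above the highest vehicle sum, 490.

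Plasma cells and exocrine pancreas also express synthetases strongly. Of 5 B and plasma cell markers 1 rose with CCl4, Xbp1, which hepatocytes also express. The sums were 1397 to 1757 with erlotinib 2 mg, 1373 to 1722 with 5 mg, 1673 to 1895 with CCl4 and 1198 to 1369 with vehicle. Xbp1, at log2 intensities of 9.68 to 10.54, carried most of these sums. Ms4a1 and Mzb1 were under background on every array and Derl3 was above it on 3, so the sums say little of plasma cells. Cd79a, Jchain, Ighm and Tnfrsf17 did not pass the filter on dim probes or were not analysed here. Of 8 exocrine pancreas markers 0 rose and 1 fell with CCl4 (Cela1), with sums of 792 to 807 with erlotinib 2 mg, 802 to 811 with 5 mg, 711 to 785 with CCl4 and 1315 to 1415 with vehicle, the CCl4 arrays being the lowest. Without Cela1 the pancreas sums of the CCl4 and vehicle arrays overlapped, at 522 to 535 with CCl4 and 529 to 563 with vehicle. Only 8 of 15 listed pancreas markers were tested. Of these, 5 were under background on every array and Amy2a5 was above it on 1. The sums without Cela1 therefore lay mostly at background, and their overlap says little of the pancreas. Of 6 neutrophil markers 1 rose (S100a8) and of 6 proliferation markers 2 rose (Mcm2 and Mcm5). Beside these counts, 6.75% of all genes rose and 5.93% fell with CCl4, and a single call in so short a list says little of a cell type. Of the 9 endothelial, 6 T and NK cell and 3 cholangiocyte markers tested, 0 were called with CCl4. The 3 cholangiocyte markers, 4 of the T and NK cell markers and 2 of the endothelial markers were under background on every array. Cd3e and Cd8b1, the other T cell markers tested, were above it on 1 array each, so nothing can be said of T and NK cells. The further cholangiocyte markers Krt19, Krt7 and Epcam did not pass the filter or were not analysed here.

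The counts depended on single arrays and on the scaling, and no call changed direction. The number of cytosolic genes called with CCl4 against vehicle was 6 without CCl4 replicate 2, 5 without vehicle replicate 2 and 5 with median scaling in place of quantile normalization, all among the 11. For both erlotinib doses against CCl4 it was 5 without CCl4 replicate 2 and 2 with median scaling. At 5 mg it was 4 without CCl4 replicate 2, 4 without replicate 1 of the 5 mg arrays and 0 with median scaling, and at 2 mg it was 2 with median scaling. The Iars2 call at 5 mg was lost in 4 of 17 alternative settings. Gars and Vars kept the CCl4 call, and Rars the call over both erlotinib doses, in all 17, while Iars lost the CCl4 call in 12 and Qars the erlotinib call in 13.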

How the data were processed

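The deposited non-normalized file gives probe intensity per array for 8 arrays, linear and, from its values, not scaled between arrays; the intensity values of the series table were normalized by the authors by a method not given in the sources used here and served as an alternative. Array number limits precision. With limma 3.58.1 in R 4.3.3, intensities were background-corrected (normexp, offset 50), quantile-normalized and put on the log2 scale. Probes above the 40th percentile of mean intensity remained (15418), and each gene was read from its probe of highest mean (11020 genes). Platform annotation gave 23978 probes 1 symbol, 0 several and 1719 none; no symbol among the 54 synthetase probes changed when set against RefSeq. Background was the 99th percentile of 1326 receptor probes per array, in place of a detection p-value. On no array did 4398 of the tested genes exceed it.

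All 8 arrays entered 1 fit of 4 groups (lmFit, eBayes; residual df 4, prior df 11.9), with p adjusted by Benjamini-Hochberg over all genes. A second fit took all kept probes as rows. "At least" folds use the background limit for the dim group. On simulated data for CCl4 against vehicle with 11020 genes, 95 of 100 genes changed by 1 log2 unit and 100 of 100 changed by 2 were recovered. No smaller change was simulated, and apart from the rise of Gars with CCl4 every called synthetase difference was smaller.

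The members, the lists (synthetase partners, amino acid response, amino acid transporters, mitochondrial translation factors, interferon gamma, cell type markers) and the tests were chosen with earlier results of these data known, so no p is given for a class or list. Per-array values were given for called synthetases and for members against the direction of their class; list genes were named by smallest p, at most 4 per direction and comparison, with a set named always. Eprs, Mars1, Ears2, the markers named and the further probes were added after their values were seen. The alternatives tried were median scaling, uncorrected background, the authors' values, other filters, probe summaries and priors, array weights, only the compared arrays, and each array left out. A few items of the lists and promoters are not reported here.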

Additional observations from a re-analysis of the deposited data

How the results depend on the processing

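No paired analysis was possible because the labels give no pairing of arrays between groups. Replicate numbers were assigned here by the order of the samples within a group. No called value changed sign; of the calls on single synthetases, 537 were kept and 126 lost over the alternatives. With the authors' values the median cytosolic difference was 0.41 for CCl4 against vehicle and -0.37, -0.35 and -0.37 for erlotinib 2 mg, 5 mg and both against CCl4. There 1 mitochondrial gene was called lower with CCl4 and 1 higher with both doses against CCl4. With both doses against vehicle 1 cytosolic gene was called higher. Without background correction the medians were 0.41 for CCl4, -0.36 for 5 mg and -0.38 for both doses. Here too 1 mitochondrial gene was called lower with CCl4 and 1 higher with both doses. With median scaling, under which 4.36% of all genes were called with CCl4 in place of 12.7%, the cytosolic calls were 5 for CCl4, 2 for 2 mg, 0 for 5 mg and 2 for both doses, the mitochondrial calls at 5 mg 0, and the mitochondrial medians 0.0473, -0.0347 and -0.0175 for CCl4, 2 mg and both doses; the cause was not tested. Without a filter on dim probes the cytosolic medians were 0.41 for CCl4 and -0.41 for both doses, over 19 genes. With probes above background on at least 2 arrays the mitochondrial medians were -0.13 for CCl4 and 0.00681 for 5 mg, over 7 genes. With an intensity trend and with array weights, 1 cytosolic gene was called higher for both doses against vehicle in each. With the mean of a gene's probes, which brings in dim probes, the cytosolic medians were 0.42, -0.37, -0.35 and -0.35 for CCl4, 2 mg, 5 mg and both doses. Among genes of log2 intensity 6.5 to 7.5, chosen after seeing the data, 7, 4, 5 and 6 of 9 cytosolic genes were called in these comparisons; counting only members above background on at least 1 array, also added later, changed no count. With 1 array left out in turn, the lone array being assumed to vary like the other groups, cytosolic calls ran from 5 to 11 for CCl4, 4 to 9 for 5 mg, 5 to 11 for both doses and 0 to 1 for both against vehicle, and mitochondrial calls at 5 mg from 0 to 1 (0 without either CCl4 array or 5 mg replicate 1). The 5 mg count was 4 without CCl4 replicate 2 and 4 without 5 mg replicate 1. Cytosolic medians then ran from 0.42 to 0.61 for CCl4, -0.54 to -0.33 for 2 mg, -0.54 to -0.38 for 5 mg and -0.55 to -0.35 for both doses. Mitochondrial medians ran from -0.0386 to 0.0387 for CCl4, 0.0191 to 0.0873 for 2 mg, -0.0507 to -0.00539 for 5 mg, -0.0565 to -0.0141 for 5 mg against 2 mg and -0.0586 to 0.0225 for both doses against vehicle. A detection filter and a slide effect were not run, as neither is in the files used here; 5 of the 19 cytosolic and 6 of the 14 mitochondrial genes had no probe above background on any array.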

Other observations

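Amino acid transporters, which supply the substrates of the synthetases, moved in both directions. Of 19 tested, 4 rose and 3 fell with CCl4 against vehicle (median 0.03), and 2 rose and 4 fell with both erlotinib doses against CCl4 (median -0.09). Of all genes tested, 6.75% rose and 5.93% fell in the comparison with vehicle, and 5.35% rose and 6.01% fell in the comparison with CCl4. Slc1a4, a carrier of alanine, serine and cysteine, had 7.33 and 6.86 with CCl4 and erlotinib 2 mg, 6.93 and 6.69 with erlotinib 5 mg, 7.88 and 7.87 with CCl4, and 6.39 and 6.61 with vehicle. It rose by 1.38 with CCl4 (adjusted p = 6.48e-06) and fell by 0.93 with erlotinib (adjusted p = 0.000114), with the CCl4 arrays above all others. Vehicle replicate 1 was under background for Slc1a4, so the size of its rise is uncertain. Slc6a9, a glycine transporter, rose by 0.75 with CCl4 (adjusted p = 0.00291) and fell by 0.66 with erlotinib (adjusted p = 0.00284). Slc38a3, a glutamine transporter of hepatocytes, ran the other way, with -0.995 in CCl4 livers against vehicle (adjusted p = 9.80e-05) and 0.94 with erlotinib against CCl4 (adjusted p = 5.55e-05). Slc38a2, a carrier of small neutral amino acids, had 7.08 and 7.48 with erlotinib 2 mg, 7.86 and 7.76 with 5 mg, 7.60 and 7.67 with CCl4, and 8.58 and 8.37 with vehicle, and stayed lower than vehicle over both erlotinib doses (difference -0.93, adjusted p = 0.000172), unlike the synthetases.

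Of 13 tested factors of mitochondrial translation and transcription, 0 rose and 1 fell with CCl4, Tfb2m, a mitochondrial transcription factor (difference -0.50, adjusted p = 0.0175), and 0 were called with erlotinib against CCl4. A single fall among 13 is near the 5.93% of all genes that fell. Their median difference was -0.06 with CCl4 against vehicle and 0.12 with both erlotinib doses against CCl4. Of the 13 interferon gamma genes 0 rose and 4 fell with erlotinib against CCl4, where 5.35% of all genes rose and 6.01% fell. Among the 4 were Igtp (difference -1.30, adjusted p = 0.000215) and Irgm1 (difference -0.65, adjusted p = 0.00111).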
